A study of Mus musculus with 2 samples.

Results

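A set of 8 genes was named for this account because they are associated with regulatory T cells, the CD4+ T cells that restrain other lymphocytes: Gpr83, Entpd1, Nt5e, Ctla4, Itgae, Nrp1, Capg and Ikzf2. Of these, 6 had a probe with a single gene symbol in the platform annotation, out of 4331 genes measured in all. Nt5e and Nrp1 were not analysed here, since no probe was named for them alone. Most of the set encodes cell surface proteins, but Capg is a cytosolic protein and Ikzf2 a nuclear one, so the set is called regulatory T cell associated genes below.

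Total RNA of CD4+ alpha beta T cells from the spleens of wildtype mice was compared with that of LatY136F mice, in which tyrosine is replaced by phenylalanine in the adaptor Lat. That tyrosine is the docking site for a phospholipase C isoform that carries the T cell receptor signal onward. Both RNAs were hybridised together to each of 2 arrays, with the dyes exchanged between them; the cells had been taken from spleen with magnetic beads against CD4 and a sorter. The labels name neither strain, age nor the number of mice, and do not say whether each array had its own RNA extract. The 2 arrays were therefore treated as 1 biological comparison without a test, and the spread between them may be purely technical.

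Each value below is a log2 ratio of LatY136F over wildtype RNA, centred on the median of its array, with array 2 reversed in sign. A mean is followed by ± 0.5 times the difference between the arrays. A gene is called higher or lower where it was at least 2-fold apart in the same direction on both arrays, that is, at 1 or more or at -1 or less. The direction of the deposited ratio is not stated and was taken as channel 2 over channel 1, and its log base was read as 10. Both readings are likely rather than certain: with the opposite direction every sign below would turn, and read as log2 in place of log10 the table would leave none of the members called. Ratios hold no expression level, so levels of different genes, and whether a gene was near the detection limit, are not known. In RNA from a mixed population, fewer cells of a type and less RNA per cell cannot be told apart.

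Regulatory T cells are defined by the transcription factor Foxp3 and act partly through surface molecules. Entpd1 (CD39) and Nt5e (CD73) work in sequence outside the cell, the first removing phosphates from ATP and ADP to leave AMP and the second turning AMP into adenosine, which dampens T cells. Ctla4 competes with Cd28 for the ligands Cd80 and Cd86 on antigen-presenting cells, and Nrp1 is a co-receptor for semaphorins and vascular endothelial growth factors. None of these genes is restricted to regulatory T cells: Ctla4 is induced on conventional T cells after activation, Entpd1 is also found on B cells and myeloid cells, Itgae on some dendritic cells and CD8 T cells, and Capg is abundant in macrophages. No probe was named for Foxp3 alone, so the genes could not be set beside it.

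The promoter windows of the 3 called genes are shown because these are the members with a difference of at least 2-fold on both arrays, one lower and the others higher. They are from RefSeq (GRCm38.p6) and run 5′ to 3′ from 250 bases before a transcript start to 50 bases after it, all on the plus strand. Capitals mark matches to GGAAA, the core of sites bound by NFAT factors, or to its complement. The windows are chr9:14859960-14860259 for Gpr83, chr19:40612116-40612415 and chr19:40659520-40659819 for the upstream and the downstream start of Entpd1, and chr1:60908775-60909074 for Ctla4. The Gpr83 window belongs to a transcript start inside the gene's RefSeq span and begins downstream of the first base of that span, so the sequence before the outermost start was not searched. The downstream window of Entpd1 likewise lies inside its gene's span.

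Gpr83: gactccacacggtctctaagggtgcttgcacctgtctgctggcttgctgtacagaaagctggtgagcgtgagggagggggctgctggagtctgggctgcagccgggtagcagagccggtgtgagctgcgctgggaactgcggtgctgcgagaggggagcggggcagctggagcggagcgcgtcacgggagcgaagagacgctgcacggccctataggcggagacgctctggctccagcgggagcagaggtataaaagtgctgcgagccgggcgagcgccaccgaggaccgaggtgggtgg

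Entpd1 upstream start: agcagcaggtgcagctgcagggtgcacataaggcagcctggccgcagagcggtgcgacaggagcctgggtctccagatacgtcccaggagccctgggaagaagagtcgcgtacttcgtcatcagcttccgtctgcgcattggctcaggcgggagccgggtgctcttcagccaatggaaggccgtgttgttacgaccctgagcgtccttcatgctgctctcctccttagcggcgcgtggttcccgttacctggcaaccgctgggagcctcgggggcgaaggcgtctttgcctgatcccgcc

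Entpd1 downstream start: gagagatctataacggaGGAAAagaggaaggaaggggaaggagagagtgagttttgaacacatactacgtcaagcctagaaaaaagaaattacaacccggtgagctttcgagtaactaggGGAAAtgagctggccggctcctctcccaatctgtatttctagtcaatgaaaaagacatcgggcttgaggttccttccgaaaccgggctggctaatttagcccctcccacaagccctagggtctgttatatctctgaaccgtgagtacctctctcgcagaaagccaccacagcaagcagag

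Ctla4: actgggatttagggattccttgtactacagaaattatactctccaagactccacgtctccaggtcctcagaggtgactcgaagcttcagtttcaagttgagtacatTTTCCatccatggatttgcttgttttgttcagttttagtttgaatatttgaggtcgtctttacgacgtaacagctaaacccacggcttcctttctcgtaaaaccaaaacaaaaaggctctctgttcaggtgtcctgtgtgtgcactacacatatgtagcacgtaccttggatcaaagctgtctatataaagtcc

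These windows were searched on both strands for 5 motifs. Beside the NFAT core these were AGATAA, bound by GATA factors such as the Th2 regulator Gata3, then TTCNNNGAA, bound by STAT factors downstream of cytokine receptors, then TGTTTAC, bound by forkhead factors such as Foxp3, and finally TGANTCA, bound by AP-1. The NFAT core occurred 2 times at the downstream start of Entpd1, beginning 233 and 130 bases before the start. Their complement occurred 1 time in the Ctla4 window, beginning 144 bases before the start. The Gpr83 window and the upstream window of Entpd1 held none of the 5 motifs, and the other 4 motifs occurred in none of the windows shown. Of all 32851 windows of the same length, 61.3% held the NFAT core, 11.2% the GATA motif, 8.30% the STAT motif, 7.81% the AP-1 motif and 3.65% the forkhead motif. The share of G and C bases was 67.0% in the Gpr83 window, 64.0% and 48.7% in the upstream and downstream windows of Entpd1 and 42.0% in that of Ctla4, beside a median of 52.7% over all windows. A match or its absence describes only these letters in these windows.

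Among the 6 measured genes, Entpd1 and Ctla4 were called higher in LatY136F cells, Gpr83 was called lower, and Capg, Itgae and Ikzf2 were not called. Over all genes, 4.20% were called higher and 0.970% lower. The members' mean ratios ran from -2.99 to 1.92 with a median of 0.66, beside a median of 0.0004 over all 4331 genes. All 6 had the same sign on both arrays, as had 55.8% of all genes, and 5 of the 6 means were above 0. The members were chosen with results of these arrays known, so these counts describe the set and do not test it.

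**Figure D1:**
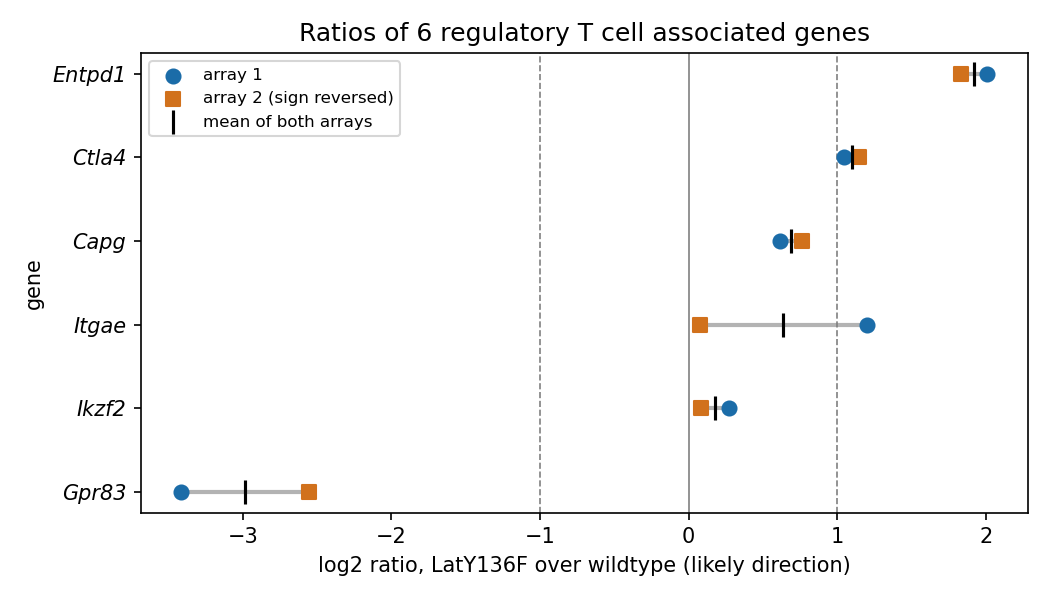
Log2 ratio of LatY136F over wildtype RNA (x axis) for each measured gene (y axis), with a circle for array 1, a square for array 2 after reversing its sign, a tick for their mean, and dashed lines at 2-fold. Entpd1 and Ctla4 lie above 1 on both arrays, Gpr83 lies far below -1 on both, and Itgae passes 1 on array 1 only.

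Entpd1 (probe 638383, transcript NM_009848; chr19:40612366-40741602, GRCm38.p6), the ectonucleotidase CD39, had the highest ratio of the set. It stood at 2.01 on array 1 and 1.83 on array 2, which is 4.02-fold and 3.55-fold higher. The mean of 1.92 ± 0.09 (3.78-fold) had rank 60 from the highest of all genes. On the single arrays it had rank 80 and rank 86.

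The nucleotide and adenosine pathway around Entpd1 comprised 32 other listed genes, of which 12 were measured. Of these 12, 1 was called higher and none lower, 10 had a mean above 0, and their median was 0.25. The called gene was P2ry14, a receptor for UDP-sugars, at 3.02 on array 1 and 1.08 on array 2 (2.05 ± 0.97). Pnp, the purine nucleoside phosphorylase that breaks down inosine and guanosine, stood at 0.75 and 0.79 and so stayed below 2-fold on both arrays. Of the enzymes and receptors that follow Entpd1 and Nt5e, the adenosine receptor Adora3 stood at 0.15 ± 0.03 and adenosine kinase, Adk, at -0.21 ± 0.41, with opposite signs on the arrays. Adora3 and Adk were named after their values were seen.

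Ctla4 (probe 634367, transcript NM_009843; chr1:60909025-60915832), the inhibitory receptor for Cd80 and Cd86, had ratios of 1.04 and 1.15. Both lie just past the 2-fold threshold, at 2.06-fold and 2.22-fold, and their difference was small. The mean was 1.10 ± 0.05 (2.14-fold), at rank 222 from the highest. At a threshold of 3-fold on both arrays, which 1.59% of all genes passed upward and 0.439% downward, Ctla4 was no longer called, which left Entpd1 as the 1 member called higher.

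The list of the CD28 and CTLA4 family held 17 other genes, among them its ligands and the inhibitory receptor Lag3, which is outside that family. Of these, 6 were measured and none was called in either direction (median 0.27). Icos, the inducible costimulator of activated T cells, stood at 0.84 on array 1 and 0.70 on array 2. Cd28, the activating counterpart of Ctla4, was near 0 at -0.10 and -0.06. The ligand Cd80 stood at 0.29 ± 0.23, while Cd86 had opposite signs on the arrays, at -0.94 and 0.53. The inhibitory receptor Lag3 passed 2-fold on array 1 at 1.92 but not on array 2 at 0.58. Cd28, Cd80, Cd86 and Lag3 were named after their values were seen.

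Gpr83 (probe 638910, transcript NM_010287; chr9:14859880-14870789), a G protein-coupled receptor, was the one member called lower. Its ratios were -3.41 on array 1 and -2.56 on array 2, or 10.7-fold and 5.88-fold lower. It was thus the lowest of all 4331 genes on array 1 and had rank 7 from the lowest on array 2, and its mean of -2.99 ± 0.43 (7.92-fold lower) had rank 2 from the lowest. The difference between the arrays was wider than for most genes, as 18.9% of genes had a larger one, but it was small beside the ratio itself. Of 13 other G protein-coupled receptors and peptide-processing genes listed beside Gpr83, 9 were measured and none was called (median -0.10). Those furthest from 0 were the receptors Gpr34 at -0.39 ± 0.25 and Gpr174 at -0.38 ± 0.17. The probes of Gpr174 had means of -0.20 and -0.55. No other receptor of this list lay near the value of Gpr83.

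**Figure D2:**
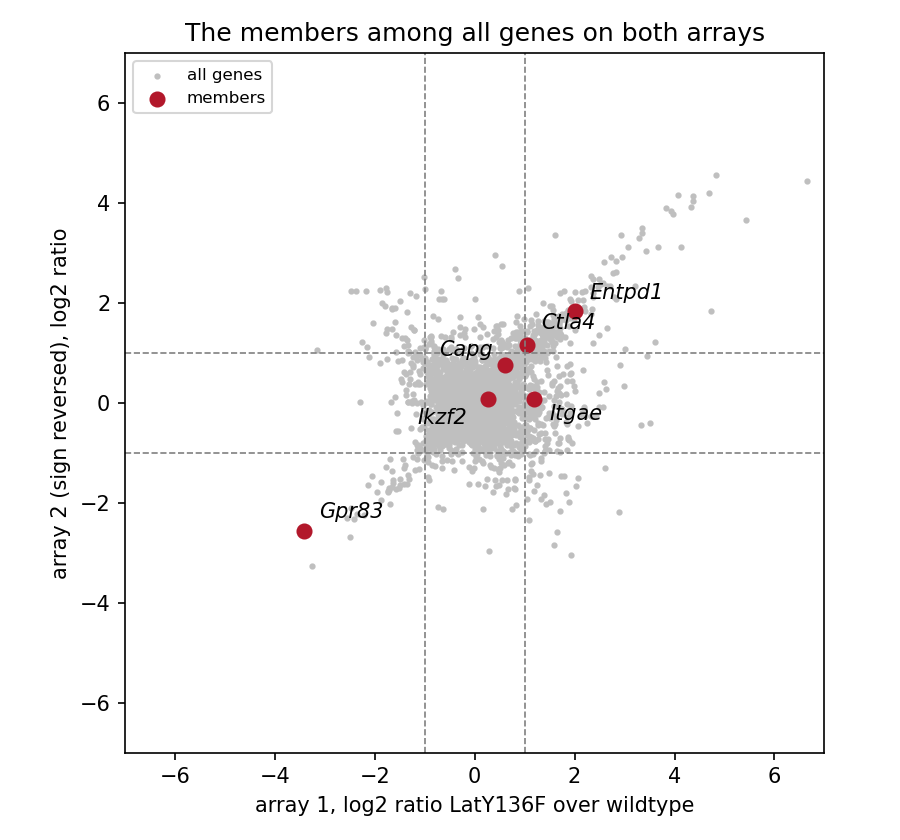
Log2 ratio of LatY136F over wildtype RNA on array 1 (x axis) against array 2 with its sign reversed (y axis), with a grey point for each of 4331 genes, red points for the 6 members and dashed lines at 2-fold. Gpr83 stands at the lower left edge of the cloud (-3.41 and -2.56), Entpd1 toward the upper right, and Ikzf2 in its centre.

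Capg (probe 641137, transcript NM_007599; chr6:72538282-72562983), which caps the fast-growing ends of actin filaments, had ratios of 0.61 and 0.76. It was thus 1.53-fold and 1.70-fold higher and stayed below 2-fold on both arrays, with a mean of 0.69 ± 0.07. At a threshold of 1.5-fold on both arrays, which 7.83% of all genes passed upward and 2.93% downward, Capg joined Entpd1 and Ctla4 as the 3 members called higher. Of 15 other genes of the gelsolin family and of actin capping, 7 were measured and none was called (median 0.21). Gelsolin itself, Gsn, which severs and caps actin filaments, came closest at 1.21 on array 1 and 0.91 on array 2.

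Itgae (probe 639445, transcript NM_008399; chr11:73090505-73147449), the integrin alpha chain CD103, was the member on which the arrays differed most. It stood at 1.20 (2.29-fold) on array 1 and at 0.08 (1.06-fold) on array 2. Only array 1 passed the threshold, array 2 lay close to 0, and the spread around the mean was nearly as large as the mean itself, at 0.64 ± 0.56. On array 1 alone, 3 members would be called higher and 1 lower, beside 9.42% and 3.35% of all genes. On array 2 alone it would be 2 higher and 1 lower, beside 7.87% and 3.49%.

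The beta chain that pairs with Itgae, Itgb7, stood at 0.65 and 0.72, below 2-fold on both arrays. The epithelial ligand of that pair, Cdh1 (E-cadherin), stood at 1.23 and 0.87. In the list of integrins and Itgae partners, 12 of 14 other genes were measured, of which 1 was called higher and none lower, and the median was 0.002. The called gene was Itgb1, the beta chain shared by many integrins, at a mean of 2.32. Its probes differed, at 2.58 and 3.02 on arrays 1 and 2 for the first and at 2.06 and 1.61 for the second. Their differences between the arrays were opposite and cancelled in the gene's mean, so its own spread is not informative. Itgav and Itga6, both integrin alpha chains, had means of -1.22 ± 0.32 and -1.21 ± 0.28 but did not pass 2-fold on array 1. Itgb7 was named after its value was seen.

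Ikzf2 (probe 634920, transcript NM_011770; chr1:69531207-69687351), the Ikaros family transcription factor Helios, had the ratio closest to 0 in the set. It stood at 0.27 on array 1 and 0.08 on array 2 (0.18 ± 0.09), well inside the threshold. Of 12 other Ikaros family members and chromatin partners, 4 were measured and none was called (median -0.06). Ikzf4 (Eos), another family member linked to regulatory T cells, stood at 0.27 ± 0.21, and the histone deacetylase Hdac2 at -0.14 ± 0.23 with opposite signs on the arrays.

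In the order Entpd1, Ctla4, Capg, Itgae, Ikzf2 and Gpr83, the array values of Entpd1 and Ctla4 did not overlap, nor did those of Ctla4 and Capg or of Ikzf2 and Gpr83. The values of Itgae overlapped those of both its neighbours, Capg and Ikzf2. The widest step was the one of 3.16 between Ikzf2 and Gpr83.

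Nrp1 has no value here, but 14 of 21 other listed genes of neuropilin ligands and co-receptors were measured. Sema4a, a semaphorin, was called higher at 1.09 and 1.25 (1.17 ± 0.08), none was called lower, and the median was 0.10.

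Of 39 other listed regulatory T cell associated genes, 23 were measured, 6 were called higher and none lower, and the median was 0.64. Over all genes, too, higher calls (4.20%) outnumbered lower ones (0.970%), and the all-gene median was 0.0004. Gzmb, a granule protease, had the highest ratio at 3.89 ± 0.05, followed by the galectin Lgals1 at 2.43 ± 0.11. The costimulatory receptors Tnfrsf18 (GITR) and Tnfrsf4 (OX40) stood at 1.77 ± 0.01 and 1.58 ± 0.05. The remaining called genes were Ebi3, a cytokine subunit, at 1.41 ± 0.14 and the cytokine Il10 at 1.22 ± 0.11. Il2ra, the interleukin-2 receptor chain CD25 that is high on regulatory T cells, had opposite signs on the arrays, at 0.20 and -0.77. These Il2ra values are averages of 2 probes, whose separate values are not given here. Cd83, an activation marker, stood at -0.91 ± 0.03. Ebi3, Il10, Il2ra and Cd83 were named after their values were seen. Gpr83 was therefore opposite in sign to the called genes of this list, and no member of the list lay below -1. Over all 8 lists, which overlap, 84 of 157 other genes were measured, of which 9 (10.7%) were called higher and none lower, beside 4.20% and 0.970% of all genes. At the share of lower calls over all genes, a list of this size need not hold any. The lists, like the members, were chosen with earlier results of these data known, so these counts describe them and do not test them. Being listed does not make a gene restricted to regulatory T cells, and which cells gave these ratios was not tested.

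**Figure D3:**
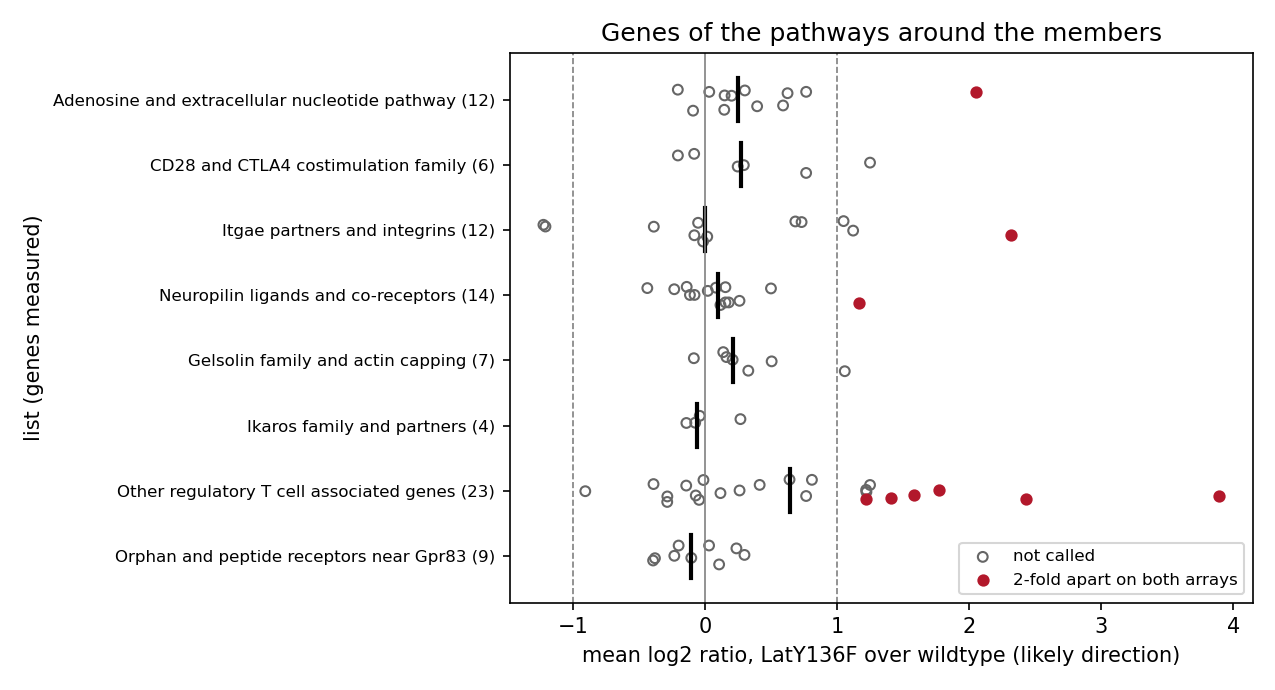
Mean log2 ratio of LatY136F over wildtype RNA (x axis) for the other measured genes of each list (y axis, with the number measured), with filled points for genes 2-fold apart on both arrays, open points for the rest, a bar for the median and dashed lines at 2-fold. The list of other regulatory T cell associated genes holds 6 filled points, all above 1, and the receptors listed beside Gpr83 lie between -0.39 and 0.30.

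The genes whose pair of array values lay closest to a called member were found by Euclidean distance over the 2 arrays. Nearest to Entpd1 were Dstn (distance 0.15), an actin-depolymerising factor, and S100a11 (0.15), a calcium-binding protein. Nearest to Ctla4 were Plpp5 (0.03), a lipid phosphatase, and Thbs1 (0.04), a secreted matrix glycoprotein. Gpr83 had no such close companion, but it lies at the low edge of the ratios, where few genes lie. Its nearest were Rgs10 (0.72), a regulator of G protein signalling, and Srpk3 (0.89), a protein kinase. Likeness over 2 arrays of 1 comparison says only that the ratios were similar.

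Markers of other cell types moved beside these genes. For comparison, 4.20% of all genes were called higher and 0.970% lower. None of 11 T cell markers was called, and their median was -0.01 with a range from -0.88 to 0.81. Monocyte and macrophage markers, the list that bears on Entpd1 and Capg, had a median of 1.16, with 7 of 16 called higher and none lower, led by the complement gene C1qc at 2.48 ± 0.08 and the lysozyme gene Lyz1 at 2.27 ± 0.09. Neutrophil markers had 3 of 5 called higher (median 2.50), led by Il1r2 and Lcn2. Platelet markers had 2 of 2 (Pf4 and Itga2b) and erythroid markers 2 of 3 (Epor and Hba-a1). B cell markers, whose cells also carry Entpd1, lay the other way, with 7 of 12 called lower, none higher and a median of -1.36. The CD8 T cell marker Cd8b1 was called lower at -2.22 ± 0.02, and Cd8a, the other measured, was not called. Dendritic cell markers, the list that bears on Itgae, held 1 called higher, Cst3, and 1 called lower, Ly6d, of 9 (median -0.03). Others of that list, such as Itgax and Flt3, were not called. Cd8a, Itgax and Flt3 were named after their values were seen. Natural killer cell markers held 1 lower of 5 (median -0.30) and stromal markers none of 4. The part of other cells in the ratios of Entpd1, Capg, Itgae and Gpr83 was not tested. As the table holds ratios alone, it does not show how much RNA of any of these cells was present, nor does it check that the cells were CD4+ T cells.

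**Figure D4:**
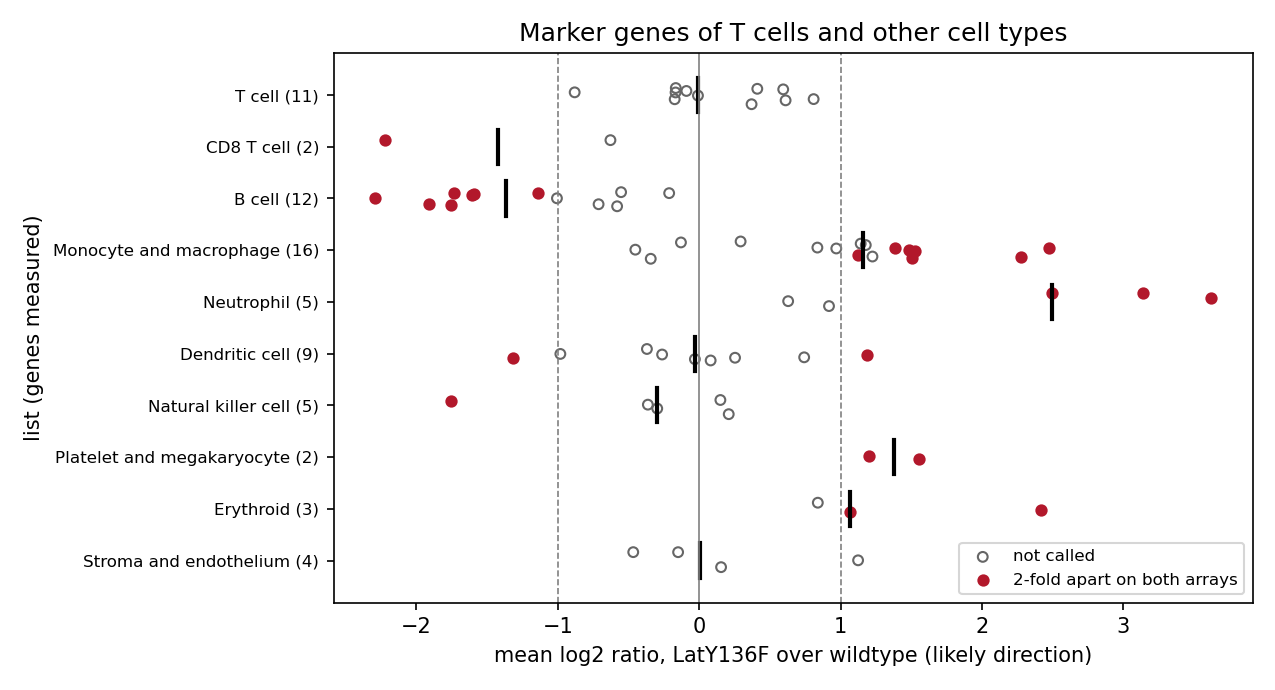
Mean log2 ratio of LatY136F over wildtype RNA (x axis) for the measured markers of each cell type (y axis, with the number measured), with filled points for genes 2-fold apart on both arrays, open points for the rest, a bar for the median and dashed lines at 2-fold. T cell markers centre on 0, monocyte and neutrophil markers lie mostly above 0, and all 12 B cell markers lie below 0.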

How the data were processed

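The deposited table holds 1 ratio per probe and array for 8014 probes, read here as log10. Per the labels, each array carried both RNAs with the dyes exchanged. The log10 base is inferred from the values and is likely rather than certain. The highest value on array 1 is exactly 2, which as log10 would be a limit of 100-fold. The authors' background correction, normalization, filters and ratio direction were not given in the sources used here. Medians of the deposited columns were -0.0033 and 0.0070, and their Pearson correlation across probes was -0.21; array 2 was multiplied by -1 because its channels are exchanged in the labels. Values were multiplied by 3.32 to give log2 and centred on each array's median (pandas 2.3.3). Probes with 1 gene symbol (4654; 73 had several, 3287 none) were averaged per gene. Each member has 1 probe, its accession was found in RefSeq (GRCm38.p6), and none was at the limit or at exactly 0. The number of arrays limits the precision.

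Calls needed 2-fold on both arrays. Named genes were all members, up to 4 genes per pathway list and 2 per marker list that were furthest from 0 among those 1.5-fold apart on both arrays (2 where none was), and the 2 genes nearest to each called member. Exceptions are marked. The members and lists were chosen with earlier results of these data known. Alternatives were other thresholds, centring, scaling, probe rules, each array alone, the turned sign, a log2 reading, and limma 3.58.1. The calling rule and limma were tested on simulated data.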

Additional observations from a re-analysis of the deposited data

How the results depend on the processing

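The 2 members called higher and the 1 called lower stayed so without centring and with arrays scaled alike. Taking the strongest probe per gene or leaving out probes at exactly 0 could not change them. Each member has 1 probe, and none was at exactly 0. A 2-fold threshold on the mean, or on 1 array alone, can add calls but cannot remove any. On the mean it added none. A 1.5-fold threshold gave 3 higher and 1 lower, and 3-fold gave 1 higher and 1 lower. Each array alone gave 2 to 3 higher and 1 lower, with a median of the members between 0.42 and 0.83. Turning the sign gave 1 higher and 2 lower, a median of -0.66, and ratios of -1.92 for Entpd1, -1.10 for Ctla4 and 2.99 for Gpr83. Read as log2, the table would hold 0 members higher and 0 lower, with a median of 0.20. limma, with the arrays taken for replicates, gave 0 members and 0 genes in all with an adjusted p under 0.05, and 4 of 6 members and 616 of 4331 genes at an unadjusted p under 0.05. Of 396 alternatives for the counts per list, 75 moved by over 1.5 times: 22 with the sign turned, 13 with the log2 reading, 1 without centring, and the rest with other thresholds or 1 array. Each ratio already pairs both RNAs on its own array. Pairing of biological replicates was not possible because there is a single comparison with 1 group of arrays.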
